A study of Rattus norvegicus with 56 samples.

Results

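Cytosolic ribosomal proteins are the protein component of the ribosome, the particle that translates nuclear messages. Proteins of the large subunit carry names beginning Rpl or Rplp, and proteins of the small subunit carry names beginning Rps. They were measured here in the dorsal striatum of rats, the brain region that receives dopamine from the substantia nigra. Members were the genes whose symbol in the array annotation has that form, read from probe sets that carry no other gene symbol and have a mean signal above log2 of 5 over all arrays, with the brightest probe set standing for its gene. The rule gave 41 genes, 28 of the large and 13 of the small subunit, of the 10148 genes that have such a probe set above the same signal. A further 6 genes of matching name lay at or below it, with Rpl26l1 just outside at 4.99 and Rps4y2 just inside at 5.28. Another 36 probe sets name a ribosomal protein together with other symbols, mostly near-identical copies, and are no members. For that reason Rplp1, Rplp2, Rps27a, Rps4x and Rpl22l1 have no value of their own.

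The series holds 56 arrays, 1 for each male Crl:OFA (Sprague Dawley) rat, in 8 groups of 7. All rats had stereotaxic surgery with an AAV vector. In lesioned rats it carried alpha-synuclein and produced a nigral loss on both sides of the brain, and in sham rats it carried the fluorescent protein GFP. From 5 weeks after surgery they were given daily L-dopa methyl ester at 50 mg/kg, the dopamine precursor, with benserazide, or saline, for 3 weeks. All then went through place conditioning, either with pramipexole at 2 mg/kg, an agonist of D2 and D3 dopamine receptors, or with saline in every session. Each of the 8 groups is 1 combination of lesion or sham, L-dopa or saline, and pramipexole or saline. The striatum was dissected 24 or 48 hours after the last conditioning injection, so no value describes the acute action of pramipexole. The lesion itself cannot be checked on these arrays, since the dopamine cell bodies lie outside the striatum. The labelled tissue was checked on 9 markers of medium spiny neurons, the main striatal cell type, among them Penk, Drd1, Drd2 and Tac1. All 9 had mean log2 signals between 9.66 and 12.20. In tissue RNA, fewer cells of a type and less RNA per cell cannot be told apart.

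A ribosome holds 1 copy of nearly every one of these proteins, and cells keep their production balanced. Most of their messages begin with an unbroken run of pyrimidines (C and T), the 5′ terminal oligopyrimidine or TOP motif. Through it the kinase mTOR and the protein Larp1 control how strongly they are translated. The messages are short, stable and among the most abundant of neurons, where some are also found in dendrites and axons.

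The 30 bases around the annotated start were read for 35 members with an entry in the RefSeq table of rat promoters (build GRCr8). Each window runs 5′ to 3′ on the strand of the gene, with 15 bases before the start and 15 from it on. A run of 8 or more C or T is in capitals. The first 5 windows belong to the members with the steepest relation to RNA quality described further on. The last 5 belong to the members that followed the other members least closely.
Rpl13a, chr1:104748899-104748928, minus strand: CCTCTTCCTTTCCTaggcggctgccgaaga
Rps28, chr7:15311319-15311348, minus strand: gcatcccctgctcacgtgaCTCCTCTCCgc
Rpl19, chr10:83519049-83519078, plus strand: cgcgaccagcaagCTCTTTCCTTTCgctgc
Rpl35, chr3:43165907-43165936, minus strand: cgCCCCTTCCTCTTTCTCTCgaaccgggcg
Rpl26, chr10:54109677-54109706, plus strand: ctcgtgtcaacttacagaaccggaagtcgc
Rps4y2, chr4:183000898-183000927, plus strand: gcgcgcagCTCTCCTCactcgcttgtgctc
Rpl7l1, chr9:21695703-21695732, plus strand: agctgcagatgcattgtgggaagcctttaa
Rpl39, chrX:121195882-121195911, minus strand: tcttctaatcgcgttcttccggcctgtcct
Rpl6, chr12:41011676-41011705, minus strand: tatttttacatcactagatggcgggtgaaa
Rps27l, chr8:76443643-76443672, plus strand: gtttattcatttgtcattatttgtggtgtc
Of the first 5 genes 4 have such a run in the window, and of the last 5 only Rps4y2 has one. Over all members with an entry, 21 of 35 windows (60%) held a run, against 10.95% of the windows of 18964 other protein-coding genes. The word CTTTCC, which can lie inside such a run, was in 7 of 35 windows (20%) on the strand of the gene and in 0 on the other strand. Among other genes it was in 1.41% and 1.10%. In the whole RefSeq entry around the start, CTTCC stood in 24 of 35 (68.6%) on the strand of the gene and in 21 (60%) on the other strand, against 45.3% and 46.4% of other genes. The word TATAAA stood in 4 (11.4%) and 2 (5.71%), against 8.62% and 6.12%. A match describes these letters, and an annotated start can lie away from the start in use. Among the windows shown, those of Rpl19, Rpl35 and Rpl6 lie well inside the gene as bounded in the rat gene table. The 5′ ends of these genes there are at 83514509, 43166485 and 41012756, and the bases around those ends were not read. The window of Rpl13a also lies inside its gene, nearer to the 5′ end, which is at 104748975. The 39 members found in the rat gene table by gene number lie on 15 chromosomes.

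The members gave bright and steady signals. Of the 41, 37 had a mean above log2 of 10. The other 4 were Rpl7l1 at 8.02, Rpl39 at 7.69, Rps27l at 5.74 and Rps4y2 at 5.28. Brightness differs between probe sets for reasons of probe design, so these values do not rank the amounts of the messages. The SD between rats of one group had a median of 0.099 log2 over the members, against 0.177 over the 18578 probe sets tested, which include dim ones. It was smallest for Rps3a (0.072), Rpl24 (0.073) and Rpl27 (0.077). It was largest for Rps4y2 (0.248), Rps27l (0.186), Rps24 (0.142), Rps16 (0.137) and Rps3 (0.135).

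**Figure D1:**
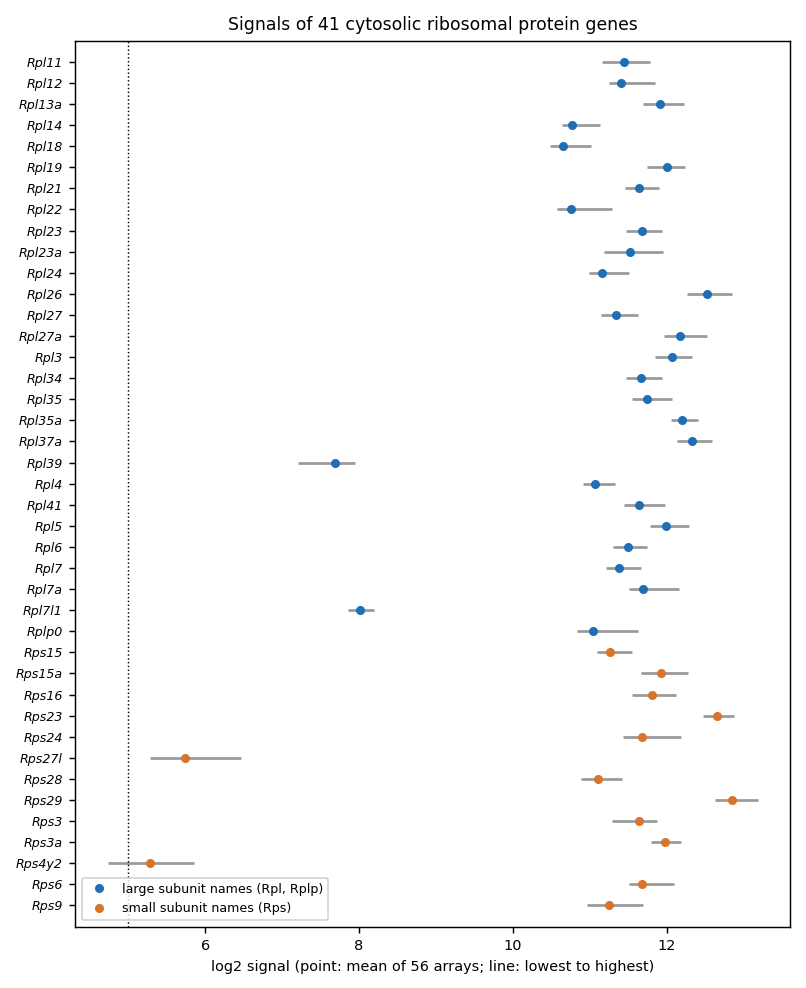
Log2 signal of the 41 members in 56 rats, in alphabetical order, with the mean as a point, the lowest to highest rat as a line, and the signal limit of 5 dotted. Of the members, 37 lie above 10, and Rps27l and Rps4y2 lie closest to the limit.

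Deviations from the group mean were shared between members. Across the 820 pairs of members, the correlation over rats, each rat taken as its deviation from the mean of its group, had a median of 0.634 and was positive in 97.6%. For the 37 bright members the median was 0.682. For pairs drawn from all tested probe sets it was 0.002, and for subunits of oxidative phosphorylation, another set of abundant and co-assembled proteins, it was 0.252. All pairs share the same arrays, and the correlations are a description. The first principal component of the members held 62.3% of their scaled variance. The members least tied to the others, by their median correlation, were Rps4y2 (0.016), Rpl7l1 (0.109), a relative of Rpl7, Rpl39 (0.292), which lines the tunnel through which the new protein leaves, Rpl6 (0.393) and Rps27l (0.441), a paralogue of Rps27 known as a target of p53.

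Many of the highest values of the members fell in a few rats, whose share of the shared variation was not measured. The mean of the 41 members, each centred on its mean over all rats, ran from -0.14 in rat 35 to 0.32 in rat 2, with rat 29 next at 0.18. Rat 2, a lesioned rat given both drugs, had the highest of 56 values for 32 of the 41 members. Rplp0, the base of the ribosomal stalk, was 11.62 in rat 2 and between 10.85 and 11.26 in the 28 sham rats. Rat 2 also stood apart in microglia, the immune cells of the brain. The summed unlogged signal of their 6 markers was 10510 in rat 2 and between 1164 and 2011 in the other 55 rats. The medium spiny neuron markers of rat 2 summed to 17480, inside the range of 12760 to 21170 over all rats. Rat 29, a sham rat given both drugs, was highest for 4 members. Its microglia sum was 1645, and it had the highest 3′ minus 5′ control signal of all, 1.29. The lowest values were spread, with rats 28 and 35 lowest for 9 members each and rat 9 for 7. The part of microglia, RNA quality or any other property in the signals of these rats was not tested.

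By group, the mean of the members was highest in lesioned rats given both drugs, at 0.08 ± 0.13 (SD, n = 7), where it ran from -0.09 to 0.32 with a median of 0.04. Lesioned rats given pramipexole without L-dopa had 0.04 ± 0.03, with values between -0.01 and 0.09. Lesioned rats with L-dopa alone had -0.01 ± 0.07, and lesioned rats with neither drug -0.03 ± 0.06. Among sham rats the values were -0.01 ± 0.11 with both drugs, -0.02 ± 0.03 with L-dopa alone, -0.05 ± 0.03 with pramipexole alone and 0.00 ± 0.09 with neither (n = 7 each). The ranges of all 8 groups overlapped.

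**Figure D2:**
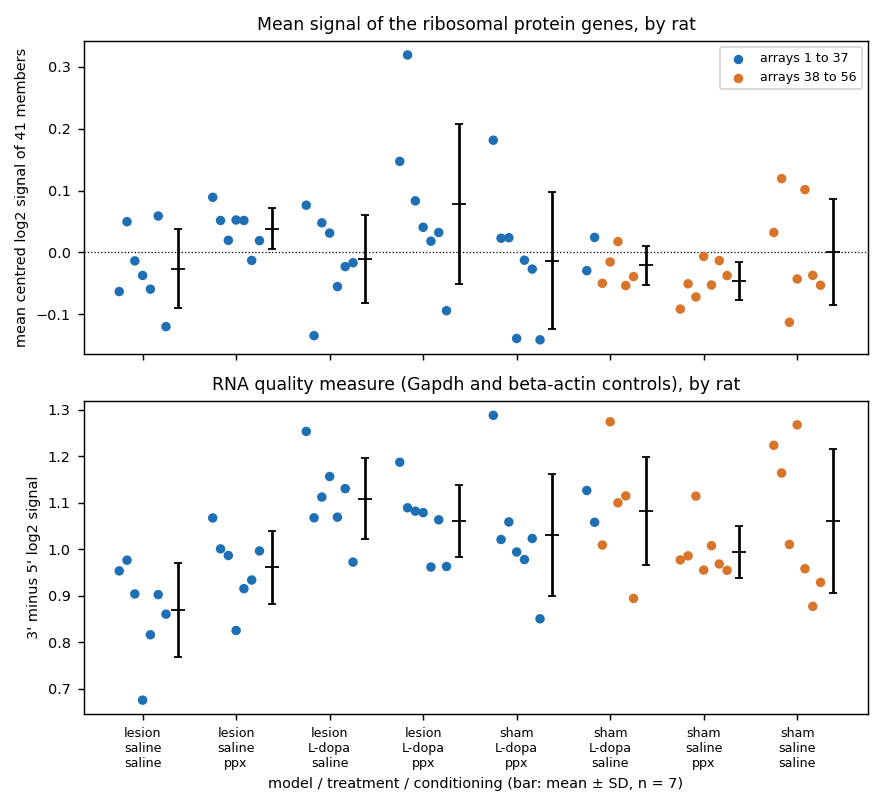
Upper panel, mean centred log2 signal of the 41 members in each rat by group. Lower panel, 3′ minus 5′ log2 signal of the control messages in the same rats, with bars for mean ± SD (n = 7) and colours for arrays 1 to 37 and 38 to 56. Rat 2 is the highest point of the upper panel at 0.32, and lesioned rats with neither drug have the lowest group mean of the lower panel at 0.87.

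Comparisons were made inside 2 sets of arrays, those numbered 1 to 37 and those numbered 38 to 56. The labels do not name these sets. They are known from earlier results of these data, and 15 of 18578 probe sets (0.0807%) had values that did not overlap between them. None of the 41 members was among the 15. The first set holds every lesioned rat, every sham rat given both drugs, and 2 of the 7 sham rats given L-dopa alone. The other sham rats lie in the second set. Those 7 sham rats are the only group found in both. There, Rps27l was 6.12 and 5.86 in rats 36 and 37, and 5.79, 5.32, 5.50, 5.58 and 5.66 in rats 38 to 42, a difference of -0.42 ± 0.15 (SE). The sets did not overlap inside this group for 4 members, Rps27l, Rpl22, Rps29 and Rps9, against 9.34% of all probe sets tested. No member passed limma's test there after Benjamini-Hochberg adjustment (Rps27l, adjusted p = 1), against 0.0861% of all probe sets, and 1 member had an unadjusted p under 0.05.

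The first question was what pramipexole conditioning left in lesioned rats. Over both L-dopa arms (14 against 14 rats), all 41 members had a higher mean with pramipexole, by a median of 0.07 log2 and between 0.02 and 0.12. Over all tested probe sets the median was 0.01, with 53.7% above 0. Limma called 0 of the 41 and 0% of all probe sets tested after adjustment (lowest adjusted p of a member 0.686). At an unadjusted p under 0.05 there were 18 members (43.9%), against 6.38% of all probe sets. With rat 2 left out there were 5, while all 41 members were still higher, by a median of 0.05. Members rose and fell together over rats (median correlation 0.634). Counts of members, here and below, are therefore not counts of independent observations. All 6 microglia markers were higher too, by a median of 0.20 with rat 2 in the fit. This median was not taken without rat 2, and the part of microglia in the members' values was not tested. Rplp0 ran from 10.94 to 11.62, the value of rat 2, with pramipexole (median 11.09) and from 10.84 to 11.15 without it (median 11.00), a difference of 0.12 ± 0.05 (SE). Of the 14 rats given pramipexole, 12 lay above the mean of those without it, and the groups overlapped. Leaving out rat 2 brought the difference of Rplp0 to 0.08 ± 0.04. Rps24, which takes part in maturation of the small-subunit RNA, differed by 0.11 ± 0.05 and Rpl35, at the exit of the peptide tunnel, by 0.10 ± 0.04, and both by 0.08 without that rat. The smallest differences were 0.02 ± 0.03 for Rpl7l1 and 0.05 each for Rps16 and Rps29. Among the 37 bright members, the 95% intervals of these differences lay between -0.06 and 0.22.

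Each L-dopa arm was also taken alone. With L-dopa, 39 of 41 members were higher with pramipexole, by a median of 0.09 (all probe sets 0.00). By limma 0 members were called, against 0.0161% of all probe sets, and 11 members (26.8%) had an unadjusted p under 0.05, against 5.82% of all. Rps27l ran from 5.82 to 6.46 (median 5.94) with pramipexole and from 5.63 to 5.92 (median 5.70) without. All 7 rats with pramipexole lay above the mean of the others, and the difference was 0.26 ± 0.10. Rps4y2 differed by 0.33 ± 0.13 and Rpl22, whose paralogue Rpl22l1 can replace it, by 0.17 ± 0.06. This arm holds rat 2. Without it, the median was 0.04, 36 members were higher, and 2 had an unadjusted p under 0.05. Rps27l then differed by 0.18 ± 0.10 and Rpl22 by 0.11 ± 0.06, while Rps4y2 stayed at 0.33 ± 0.14. With the 3′ minus 5′ signal of the control messages, a measure of RNA quality described further on, in the fit of all rats, the median was 0.10, 40 members were higher and 18 had an unadjusted p under 0.05. All 6 microglia markers were higher in this comparison, by a median of 0.46 with rat 2 in the fit. Their summed unlogged signal was 10510 in rat 2 and 1244 to 1518 in the other rats of its group. Without pramipexole it was 1252 to 1609. Hbb, a globin of red blood cells, was called lower (-0.87 ± 0.17, adjusted p = 0.0402 in limma). The part of microglia and blood in the members' values was not tested.

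Without L-dopa, 39 of 41 members were higher with pramipexole, by a median of 0.07 (all probe sets 0.01). After adjustment limma called 0 members and 0% of all probe sets, and 5 members (12.2%) had an unadjusted p under 0.05, against 7.09% of all. Rpl39 ran from 7.49 to 7.88 with pramipexole (median 7.78) and from 7.21 to 7.76 without (median 7.57), a difference of 0.21 ± 0.07. Rpl19, which forms a bridge between the subunits, ran from 11.96 to 12.14 against 11.85 to 12.04, a difference of 0.13 ± 0.06, with all 7 rats above the mean of the others. Rps4y2 (-0.20 ± 0.13) and Rps27l (-0.08 ± 0.10) were the only members with a lower mean here. Rat 2 is in neither group of this arm, and the microglia markers were higher for 2 of 6. The 3′ minus 5′ control signal was 0.96 ± 0.08 with and 0.87 ± 0.10 without pramipexole (exact permutation test, two-sided, p = 0.0775, adjusted over 7 comparisons 0.181). With that signal in the fit the median of the members was 0.04.

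The test of the difference between the arms showed no called member. Its median over the members was 0.00, with 23 of 41 positive, and it had no settled direction. Without rat 2 the members had a median of -0.04, with 12 of 41 positive. With the 3′ minus 5′ signal in the fit they had one of 0.05, with 37 of 41 positive. Rps4y2 had the largest difference, 0.53 ± 0.18 (adjusted p = 0.619), followed by Rps27l at 0.34 ± 0.14 and Rpl22 at 0.15 ± 0.09. Rpl39 had the lowest, -0.22 ± 0.10. Limma called 0% of all probe sets, and 3 members (7.32%) had an unadjusted p under 0.05, against 7.01% of all.

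In sham rats without L-dopa most members had a lower mean with pramipexole. There 36 of 41 were lower, by a median of -0.06, while all tested probe sets had a median of 0.00. In limma 0 members and 0% of all probe sets were called (lowest adjusted p of a member 0.717), and 3 members (7.32%) had an unadjusted p under 0.05, against 6.32% of all. Rpl23a, a landing site for factors that meet the new protein, ran from 11.28 to 11.42 with pramipexole (median 11.37) and from 11.35 to 11.73 without (median 11.54). All 7 rats with pramipexole lay below the mean of the others, and the difference was -0.18 ± 0.07. Rpl22 differed by -0.12 ± 0.06 and Rps4y2 by -0.15 ± 0.13. On the other side stood Rps27l (0.23 ± 0.10), Rpl39 (0.10 ± 0.07) and Rps16 (0.04 ± 0.07). The 3′ minus 5′ signal was 1.00 ± 0.06 with and 1.06 ± 0.15 without pramipexole (exact permutation p = 0.309, adjusted 0.432). With it in the fit, as 1 slope for arrays of both sets, the median was -0.03 and 31 members were lower.

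The lesioned and sham effects of pramipexole without L-dopa were then set against each other, a comparison added after the values were seen. It takes 1 change inside each array set. The difference was positive for 39 of 41 members, with a median of 0.13 against 0.01 over all probe sets. Limma called 0 members and 0% of all probe sets (lowest adjusted p of a member 0.693). There were 16 members with an unadjusted p under 0.05 (39.0%), against 6.71% of all probe sets. The largest were Rpl23a at 0.26 ± 0.10 and Rpl35 at 0.22 ± 0.08, and Rps27l stood against them at -0.31 ± 0.14. With the 3′ minus 5′ signal in the fit the median was 0.08, 34 members were positive and 2 had an unadjusted p under 0.05. That fit used 1 slope for both array sets, although slopes fitted inside each set had medians of 0.59 and 0.11. It therefore does not give the change left after each set's own slope. The opposite signs in lesioned and sham rats were not shown to differ for any single member after adjustment.

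L-dopa in lesioned rats gave small differences, whose median changed sign when RNA quality entered the fit and was smaller without rat 2. Over both conditioning arms, 37 of 41 members were higher with L-dopa, by a median of 0.03 (all probe sets 0.01). Limma made no call among the members (0 of 41), against 0.00538% of all probe sets, and 0 members had an unadjusted p under 0.05, against 10.3% of all. Without rat 2 the median was 0.01 and 25 of 41 were higher, and 1 member, Rpl6, had an unadjusted p under 0.05 (-0.08 ± 0.03, lower with L-dopa). All 6 microglia markers were higher with L-dopa, by a median of 0.27 with every rat in the fit, a median not taken without rat 2. Among the members the largest differences were Rpl39 at 0.09 ± 0.05, Rpl21 at 0.08 ± 0.04 and Rps24 at 0.08 ± 0.05. The lowest was Rpl6 at -0.06 ± 0.03. In rats conditioned with saline 29 members were higher, by a median of 0.02. Rpl39 ran from 7.58 to 7.88 with L-dopa (median 7.71) against 7.21 to 7.76 without (median 7.57), a difference of 0.20 ± 0.07, while Rps4y2 differed by -0.28 ± 0.13 and Rps27l by -0.14 ± 0.10. No member was called there by limma, against 0.0161% of all probe sets, and 2 (4.88%) had an unadjusted p under 0.05, against 12.8% of all. The 3′ minus 5′ control signal was higher with L-dopa in these same rats, 1.11 ± 0.09 against 0.87 ± 0.10, a difference of 0.24 (exact permutation p = 0.00117, adjusted over 7 comparisons 0.00816). With that signal in the fit the median became -0.06, with 37 of 41 members lower.

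In lesioned rats conditioned with pramipexole, 33 members were higher with L-dopa, by a median of 0.04. The limma test called 0 members and 0% of all probe sets, and 0 members had an unadjusted p under 0.05. Rps4y2 (0.25 ± 0.13), Rps27l (0.20 ± 0.10) and Rpl22 (0.12 ± 0.06) had the largest differences. Without rat 2 the median was -0.01 and 25 members were lower. The 3′ minus 5′ signal was 1.06 ± 0.08 against 0.96 ± 0.08 (exact permutation p = 0.0338, adjusted 0.118). With it in the fit the median was also -0.01. With the signal in the fit over both conditioning arms the median was -0.03. All 6 microglia markers were higher here, by a median of 0.50 with rat 2 in the fit. Apart from rat 2, their summed unlogged signal was 1244 to 1518 with L-dopa and 1187 to 1412 without. This comparison shares its group of lesioned rats given both drugs with the pramipexole comparison above. In sham rats of the second array set conditioned with saline (5 with and 7 without L-dopa), 32 of 41 members were lower with L-dopa, by a median of -0.04. Here limma called 0 members and 0% of all probe sets, and 1 member had an unadjusted p under 0.05. That member was Rpl18, at 10.57 to 10.69 against 10.66 to 10.88, a difference of -0.14 ± 0.05. The difference between the L-dopa effects of lesioned and sham rats conditioned with saline, added after the values were seen, had a median of 0.04 with 37 members positive, and limma called 0 members and 0% of all probe sets. With the 3′ minus 5′ signal in the fit, again as 1 slope for both array sets, its median was -0.03.

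**Figure D3:**
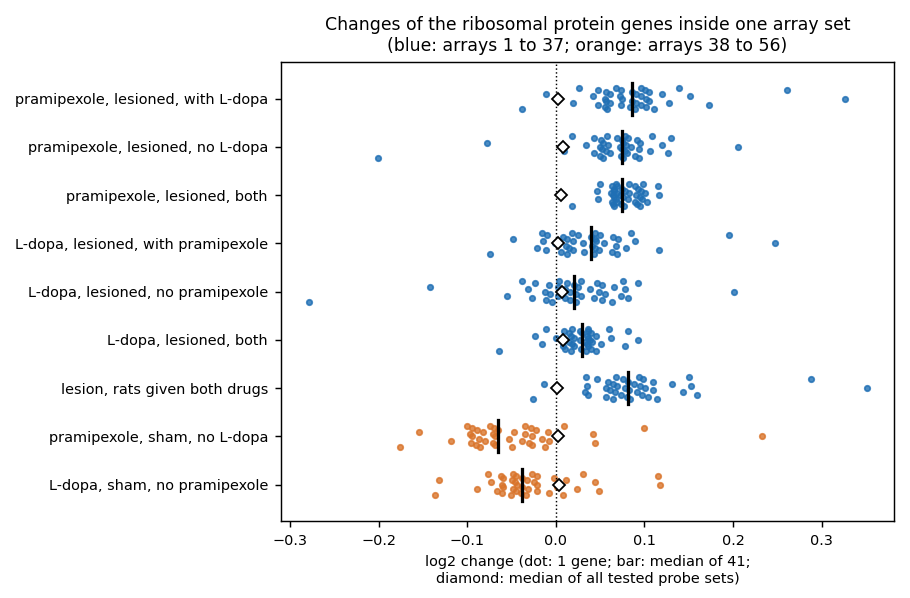
Log2 change of each of the 41 members (dots) in 9 comparisons, with the median of the members as a bar and the median of all tested probe sets as a diamond. The medians lie between 0.02 and 0.09 in the comparisons with lesioned rats and at -0.06 and -0.04 in those inside sham rats, while the diamonds lie between 0.00 and 0.01.

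The lesion could be compared inside 1 array set only in rats given both drugs. There 39 of 41 members were higher in lesioned rats, by a median of 0.08 (all probe sets 0.00). Limma called 0 members and 0% of all probe sets (lowest adjusted p of a member 0.567), and 10 members (24.4%) had an unadjusted p under 0.05, against 6.81% of all. Rps27l ran from 5.82 to 6.46 in lesioned rats (median 5.94) and from 5.29 to 6.01 in sham rats (median 5.81), a difference of 0.29 ± 0.10. Rps4y2 differed by 0.35 ± 0.13 and Rps24 by 0.16 ± 0.08, while Rpl39 (-0.03 ± 0.07) and Rpl7l1 (-0.01 ± 0.05) had lower means. Both groups hold a rat that stood apart, rat 2 and rat 29. Without rat 2 the median was 0.04, 37 members were higher and 2 had an unadjusted p under 0.05.

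Over all 28 lesioned and 28 sham rats, 3 members were called, all higher in lesioned rats, where 2.23% of all probe sets were called higher and 5.07% in either direction. Rpl23, at the face between the subunits, ran from 11.55 to 11.93 in lesioned rats (median 11.74) and from 11.47 to 11.84 in sham rats (median 11.59). The difference was 0.13 ± 0.03 (adjusted p = 7.9e-04 in limma), with 25 of 28 lesioned rats above the sham mean. Rpl23a differed by 0.14 ± 0.04 (adjusted p = 0.0119, 23 of 28 rats), and Rps27l by 0.21 ± 0.05 (adjusted p = 0.00864, 23 of 28 rats). The groups overlapped for all 3. This comparison sets 28 rats of the first array set against 9 of the first and 19 of the second. With the array set as a block limma called 0 members: Rpl23 was then 0.11 ± 0.06, Rpl23a 0.14 ± 0.08 and Rps27l -0.07 ± 0.12, with an adjusted p of 0.998 for each. Rps27l by set was 5.83 ± 0.22 (SD, n = 37) in the first and 5.57 ± 0.18 (n = 19) in the second. With 8 group means in that fit, the array set was estimated only inside sham rats given L-dopa alone, the group found in both sets. This group has 2 rats in the first set and 5 in the second. The change in values with the block rests on these rats. The other 38 members were not called, and 37 of 41 were higher in lesioned rats, by a median of 0.03 against -0.01 over all probe sets. At an unadjusted p under 0.05 in limma there were 8 members (19.5%), near the share of all probe sets (19.7%). Rplp0 was at 0.03 ± 0.03, Rps6, the target of the S6 kinases below mTOR, at 0.06 ± 0.03, Rpl3, of the peptidyl transferase centre, at 0.03 ± 0.02, and Rpl41, one of the shortest proteins known, at -0.02 ± 0.03.

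More members were called for a measure of RNA quality than in any comparison of lesion or drug. The arrays carry control probe sets at the 3′ and 5′ ends of the rat Gapdh and beta-actin messages. The label starts from the 3′ end, so a larger 3′ minus 5′ difference in log2 signal means that fewer labelled copies reached the 5′ end. The mean of both control genes ran from 0.68 in rat 25 to 1.29 in rat 29. A slope on it was fitted beside the group means, so that it rests on rats of one group. Of the 41 members 39 had a positive slope, with a median of 0.37 log2 per log2 unit of the control difference, against 0.06 over all probe sets. Limma called 18 members, all with positive slopes, where 9.36% of all probe sets were called positive and 9.27% negative (18.6% in all).

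The 5 steepest were Rpl13a, which can also leave the ribosome to silence messages of inflammation, at 0.64 ± 0.13 (adjusted p = 3.67e-04), Rps28 at 0.63 ± 0.14, Rpl19 at 0.58 ± 0.13, Rpl35 at 0.57 ± 0.12 and Rpl26 at 0.55 ± 0.14. The windows of 4 of these 5, all but Rpl26, hold a pyrimidine run, as do 21 of the 35 members with an entry (60%). Those of Rpl13a, Rpl19 and Rpl35 lie inside the gene as bounded in the rat gene table. A relation between runs and slopes was not tested. Rps24, Rps16, Rpl41, Rps29 and Rpl37a followed, with slopes between 0.50 and 0.54. The others called were Rps3, Rpl21, Rpl35a, Rps15, Rpl27a, Rpl34, Rps15a and Rps3a, at 0.30 to 0.48. Of the members with the lowest slopes, Rps4y2 had -0.52 ± 0.33, Rpl18 -0.06 ± 0.12, Rps9 0.06 ± 0.18, Rpl6 0.09 ± 0.12 and Rpl7l1 0.12 ± 0.12, none of them called. On the signal scale, Rpl13a was 11.70 in rat 25, the rat of lowest control difference, and 12.16 in rat 29, the rat of highest. Its highest value was 12.22 in rat 2, whose control difference was 1.09.

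**Figure D4:**
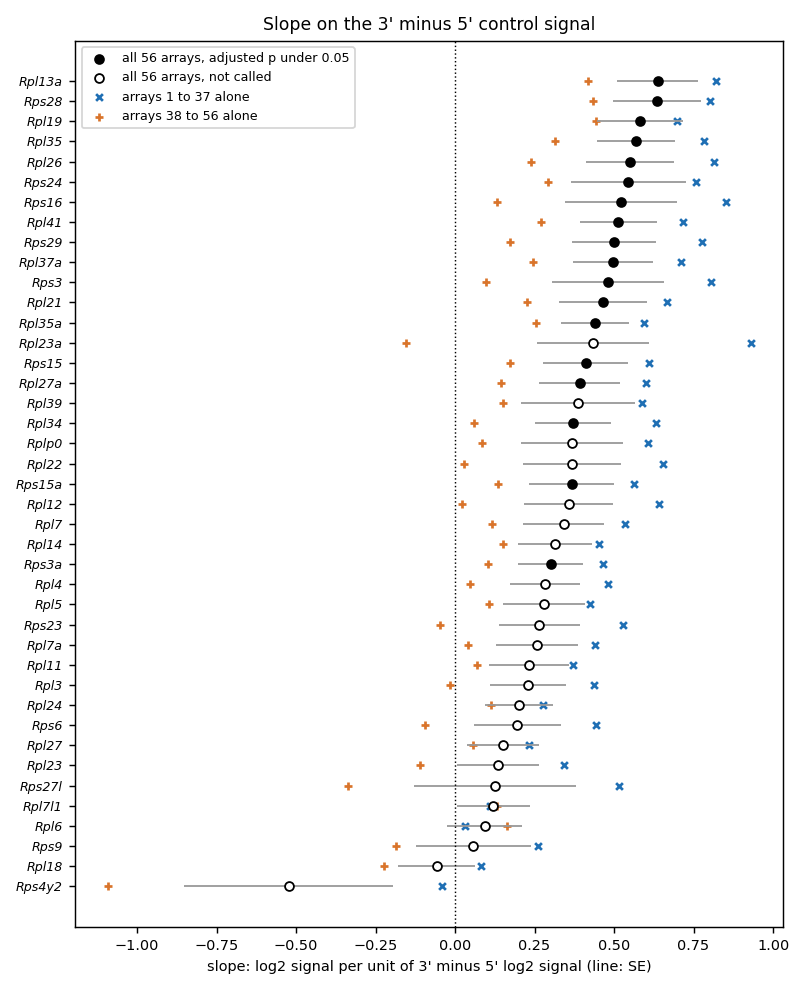
Slope of each member's log2 signal on the 3′ minus 5′ log2 control signal, with its SE, over 56 arrays (circles, filled where adjusted p is under 0.05) and inside each array set (crosses). Of 41 circles 39 lie above 0 and 18 are filled, and the crosses of arrays 38 to 56 have a median of 0.11 against 0.59 for arrays 1 to 37.

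The slopes were also fitted inside each array set. Among arrays 1 to 37 alone 22 members and 14.3% of all probe sets were called, and 40 of 41 members were positive, with a median slope of 0.59. Among the 19 arrays 38 to 56 limma called 0 members and only 38 of 18578 probe sets (0.205%), with a median of 0.11 and 32 members positive. Rpl13a had 0.82 ± 0.18 in the first set and 0.42 ± 0.20 in the second, and Rpl19 had 0.70 ± 0.19 and 0.44 ± 0.21. The test of this difference, added after the values were seen, gave a lower slope in the second set for 39 of 41 members, by a median of -0.45 against -0.06 over all probe sets. Limma called 0 members and 0% of all probe sets, and 11 members (26.8%) had an unadjusted p under 0.05, against 8.08% of all. The SD of the control difference over all arrays of a set was 0.12 in both, differences between groups included. The slopes rest on the spread inside groups. That SD was 0.08 to 0.13 in the groups of 7 of the first set and 0.06 to 0.15 in the groups of the second. Leaving out rat 29 alone lowered the count from 18 to 8 and the median slope to 0.28, and the calls over all probe sets from 3460 to 2085. Leaving out rat 2 gave 20 and 0.34. Inside single groups of 7, the slope of the mean of the members was steepest in lesioned rats given both drugs (1.02) and in sham rats given both drugs (0.76), which hold rat 29. In the lesioned group, rat 2 had a control difference of 1.09, near the group mean of 1.06. Its lowest mean of the members was -0.09 in rat 7, with a control difference of 0.96. The slope was between -0.27 and 0.49 in the other 5 groups that lie in a single array set.

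**Figure D5:**
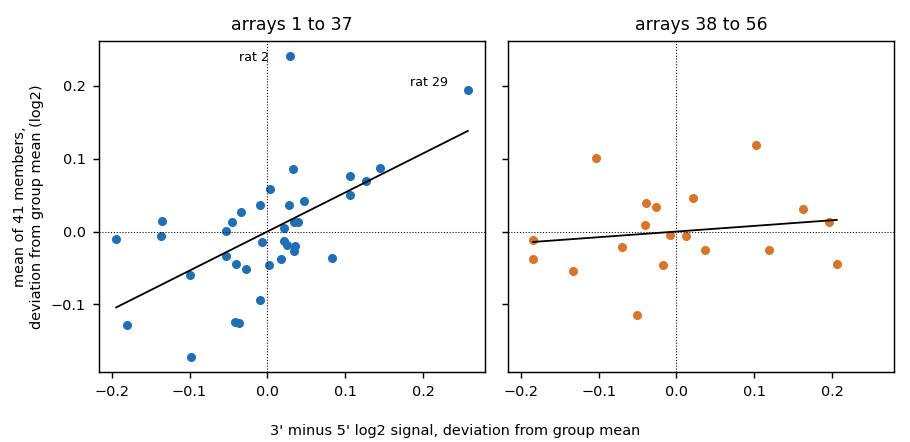
Mean of the 41 members against the 3′ minus 5′ control signal, both as log2 deviations from the group mean, for arrays 1 to 37 (left) and 38 to 56 (right) with the fitted line. The line has a slope of 0.54 on the left, where rats 2 and 29 are the highest points, and of 0.08 on the right.

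Lists of related genes gave slopes of their own, to be read against the 9.36% of all probe sets called positive and the 9.27% called negative. Of 73 proteins of the mitochondrial ribosome, which translates messages of the mitochondrial genome, 0 were called with a positive and 21 with a negative slope, with a median of -0.24. The largest were Mrpl14 (-0.98 ± 0.25), Mrps9 (-0.86 ± 0.26) and Mrps22 (-0.81 ± 0.20). Of 70 subunits of oxidative phosphorylation 6 were called positive and 23 negative (median -0.12), with Sdhd at -0.78 ± 0.13. Of 49 genes named as translation initiation factors or their regulators 5 were positive and 8 negative, among them Eif4ebp3 at 1.15 ± 0.24 and Eif2b3 at -0.89 ± 0.20. Of 9 elongation factors and other genes with TOP messages 2 were called positive, Eef2, which moves the ribosome along the message (0.43 ± 0.13), and Hnrnpa1 (0.34 ± 0.12), and 1 negative, Nap1l1 (-0.47 ± 0.10). Among 21 ribosome assembly factors Dkc1, a pseudouridine synthase, was called positive (1.15 ± 0.21) and 3 negative, among them Rrs1 (-0.67 ± 0.24) and Wdr12 (-0.59 ± 0.19). Of 12 genes of mTOR signalling 2 were positive, Larp1 (1.24 ± 0.33) and Tsc2 (0.78 ± 0.17), and 2 negative, with Rictor at -0.47 ± 0.13. The 36 ribosomal probe sets of several symbols had 21 called positive, 0 negative and a median of 0.40. Markers of cell types were mixed. Of 9 for medium spiny neurons 4 had positive slopes, with a range of -1.63 to 0.51 and a median of -0.18. Only Tac1 (-1.63 ± 0.34) and Drd1 (-0.93 ± 0.26) were called there, both negative. Of 5 astrocyte markers 4 were positive (median 0.47, lowest -0.85) and 3 were called positive, among them the glutamate transporter Slc1a3 (0.74 ± 0.16). Of 5 endothelial markers 4 were positive (median 0.81) and 2 were called, with Cldn5 at 0.82 ± 0.23. For oligodendrocytes 3 of 5 were positive (median 0.07) and 2 were called. All 6 microglia markers were positive (median 0.59) and 0 were called. The part of tissue makeup in the members' slope was not tested.

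The same lists were read in the comparisons of treatment. For pramipexole in lesioned rats the median was 0.02 for mitochondrial ribosomal proteins (49 of 73 positive), 0.02 for oxidative phosphorylation (57 of 70), 0.01 for initiation factors (34 of 49), 0.03 for assembly factors (15 of 21), 0.00 for mTOR signalling (6 of 12) and 0.06 for other TOP messages (7 of 9). Limma called 0 genes of these lists and 0% of all probe sets. The ribosomal probe sets of several symbols had a median of 0.08, with 36 of 36 positive, and in sham rats -0.06, with 6 of 36 positive. In the comparison of all lesioned with all sham rats, where 2.23% of all probe sets were called higher and 5.07% in either direction, 7 mitochondrial ribosomal proteins were called higher and 0 lower, among them Mrps21 (0.14 ± 0.03), as were 5 subunits of oxidative phosphorylation, with Cox5a at 0.59 ± 0.05. Cox5a also differed between the array sets inside the sham rats given L-dopa alone (-0.76 ± 0.13, adjusted p = 0.00182), with lower values in the second set. Of initiation factors 3 were called higher, among them Eif2ak4 (0.45 ± 0.05), and 1 lower, Eif4ebp2 (-0.10 ± 0.03), the 1 call among mTOR genes as well. Polr1a, of the enzyme that makes ribosomal RNA, was the 1 assembly gene called, lower by -0.19 ± 0.05. No gene among the other TOP messages was called. With the array set as a block limma called 0 genes of these lists and 0 of 18578 probe sets. Then 53 of 73 mitochondrial ribosomal proteins (median 0.04) and 61 of 70 subunits of oxidative phosphorylation (median 0.05) had a higher mean in lesioned rats, with 3 and 2 at an unadjusted p under 0.05, against 799 of all probe sets.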

How the data were processed

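Total RNA of each rat (100 ng) was labelled with a kit that starts from the 3′ end and hybridized to Affymetrix Rat230_2 arrays. Per the submitters' processing notes, the authors used MAS5; its version and scaling are not given in the sources used here. The deposited values are log2 signals. Unlogged, their trimmed mean (2% off each end) lay between 150.042 and 150.046 on every array, so arrays were already scaled, and nothing further was normalized. The number of arrays limits the precision, and detection calls were not used here. No label says that rats of a group shared a batch, and each array is an individual rat.

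The 18578 non-control probe sets with a mean log2 above 5 were fitted with limma 3.58.1 in R 4.3.3 (lmFit, eBayes), with Benjamini-Hochberg adjustment over all of them and calls at 0.05, two-sided. The fit held 9 means: the 8 labelled groups, with sham rats given L-dopa alone divided at rat 37. The lesion comparison over all rats used the 8 labelled groups. Changes are given ± SE. Tests of the 3′ minus 5′ signal were exact permutation tests (scipy), over 3432 splits for 7 against 7 rats. Scripts were tested on simulated data. Named genes were the called members, otherwise the 3 largest rises and falls of a comparison, the extremes of level, spread and slope, and 12 genes chosen by name; from each related list up to 3 called genes. Genes outside this rule are named for their correlation with the other members, or as markers that moved with a result. The members, lists and array sets were chosen with earlier results of these data known. Alternatives were the filter, quantile normalization, array weights, a robust variance prior, other sets of arrays or probe sets, the array set as a block, the 3′ minus 5′ signal as a covariate, and leaving out rats. Figures were drawn with matplotlib.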

Additional observations from a re-analysis of the deposited data

Results flagged for a closer look

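Among 16 sets of array measures (the 3′ minus 5′ control signal and the mean of the members in each of the 8 groups), 1 held a rat that lay far from the others of its group. In sham rats given pramipexole alone the 3′ minus 5′ control signal was 1.1145 in rat 45 and between 0.9549 and 1.0079 in the other 6. Chance gives such a rat in about 1 of 20 groups. Over single members, 15 of 328 sets of 1 gene in 1 group (4.57%) held one, 6 of them through rat 2 and 2 through rat 29.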

How the results depend on the processing

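No paired analysis was possible because the labels number the rats without a break from 1 to 56, so no number is shared between groups. Limma called 0 members under every alternative run for the 9 drug comparisons and the lesion comparison in rats given both drugs. The same held for the comparison of the array sets and the added comparisons of drug effects between lesioned and sham rats. For the added test of the slopes between array sets no alternative was run. For all lesioned against all sham rats the count of 3 became 5 with the 3′ minus 5′ signal in the fit, the added genes being Rpl27a and Rpl35, and 0 with the array set as a block, where Rps27l was -0.073; leaving out single rats gave 3 to 4. The count of 18 of 41 members with a slope on the 3′ minus 5′ signal became 7 with quantile normalization. The share of all probe sets called was then 17.55%, against 18.6% in the main fit. The median slope of the members fell from 0.37 to 0.17. The count was 10 with beta-actin as the only control gene and 0 among arrays 38 to 56 alone (0.205% of all probe sets). It was 8 without rats 2 and 29 (11.49% of all probe sets), a setting chosen after seeing the data. Leaving out single rats gave 8 (rat 29) to 23 (rat 53). The cause of these shifts was not tested, beyond the smaller number of arrays where rats were left out. With group differences near 0.1 log2 and an SE near 0.06 for 7 against 7 rats, single members of this size were below what the adjusted test called.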

Other observations

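The arrays also carry a control probe set for 5S ribosomal RNA, which enters the large subunit with Rpl5 and Rpl11 and has no poly(A) tail of its own. Its log2 signal was 6.21 ± 0.28 (SD, n = 37) in arrays 1 to 37 and 5.81 ± 0.17 (n = 19) in arrays 38 to 56. Among lesioned rats it was 6.28 ± 0.29 with both drugs, 6.29 ± 0.11 with L-dopa alone, 6.33 ± 0.25 with pramipexole alone and 5.92 ± 0.29 with neither (n = 7 each). These values were not tested.

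A dim second probe set of Rpl7, with a mean of 5.89, was called higher in all lesioned against all sham rats (0.42, adjusted p = 7.73e-05 in limma), where the bright one at 11.38 differed by 0.05 (adjusted p = 0.24). For pramipexole in lesioned rats the bright probe set of Rpl3 differed by 0.08 and its dim one by -0.13, and both probe sets of Rps24 were higher, by 0.11 and 0.10.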
